A study of Mus musculus with 18 samples.

Results

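The clustered protocadherins are the subject here: the 57 protein-coding genes on mouse chromosome 18 whose GENCODE M21 symbols begin with Pcdha (14 genes), Pcdhb (22) or Pcdhg (21), of 21853 protein-coding genes in all. They were chosen by position and name and not by any methylation value. For each gene the window was its first exon with the 1 kb before it, and the level was the percentage of methylated reads among all reads summed over the CpGs that had at least 5 reads in each of the 18 libraries. Of the 6215 CpGs in these windows 847 met that minimum. They lay in 53 genes, and the 52 genes with at least 3 such CpGs were tested (13 Pcdha, 18 Pcdhb and 21 Pcdhg). Pcdhb1, Pcdhb8, Pcdhb11 and 1 of 2 gene identifiers named Pcdha11 had no CpG used, and Pcdhb14 had 1. The tested gene of that name is ENSMUSG00000007440.10.

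Protocadherins are cadherin-type adhesion proteins of the cell surface, and the clustered ones give a neuron the surface identity by which it tells its own branches from those of other cells. Each Pcdha and Pcdhg gene has its own promoter and a large first exon, the variable exon, which codes for the extracellular domains and is spliced to constant exons shared by the cluster; Pcdhb genes are single exons without a constant part. Neurons choose among most of these promoters at random, with the help of CTCF and cohesin, and promoters that are not chosen are as a rule methylated. The C-type genes Pcdhac1, Pcdhac2, Pcdhgc3, Pcdhgc4 and Pcdhgc5 at the ends of the Pcdha and Pcdhg clusters are expressed more constantly and not chosen in this way. No expression was measured here, and embryonic stem cells are not neurons.

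Methylation came from enhanced reduced representation bisulfite sequencing, which cuts genomic DNA with 3 restriction enzymes and reads mainly CpG-rich fragments. The cells were mouse embryonic stem cells in which Dnmt1, the methyltransferase that copies CpG methylation onto newly replicated DNA, was knocked out. All 6 groups share this knockout and a pPyCAGIP vector under puromycin selection, and they differ in the DNMT1 it carried: WT, W796A, W465A, W464A/W465A, W465A/W796A or W464A/W465A/W796A, named by tryptophans replaced with alanine. As background, the W464A and W465A substitutions lie in the replication foci targeting domain of DNMT1 and W796A in its first BAH domain, both of which contact histone tails. Each group has 3 libraries labelled as biological replicates. Several stable lines were made per group, but whether the libraries of a group come from different lines is not stated, so p-values measure the spread between these libraries, and a promoter state fixed in a founder cell cannot be told apart from an effect of the substitution. DNMT1 protein amounts were not used here.

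Library totals lay between 59776439 and 138978763 CpG reads, and the 1424423 CpGs shared by all libraries had a mean level of 40.9% to 52.3% in WT, 38.0% to 55.1% in W796A, 33.0% to 37.9% in W465A/W796A and 17.4% to 25.2% in W465A. It was 13.6% to 16.8% in W464A/W465A and 13.2% to 16.6% in the triple mutant, W464A/W465A/W796A. WT replicate 1 and W796A replicate 1 were the lowest of their groups. A clustered protocadherin window held 3 to 64 CpGs used, with a median of 12.5, and 18 to 3258 reads per library. The variable exons are paralogs, and how reads that match several of them were treated is not given in the sources used here.

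The WT cells carried substantial methylation over the protocadherin first exons. Averaged over the 52 genes, WT replicates 1, 2 and 3 had levels of 24.5%, 40.7% and 34.1%, which is 33.1% ± 8.11 (SD, n = 3). The same average over all 12641 protein-coding genes tested was 9.55% ± 1.90. These averages cover sequence of unlike CpG density. With 21 to 30 CpGs within 250 bp there were 407 protocadherin CpGs and 42718 of other windows, and with over 30 there were 200 and 258743. Only 59 of the 847 protocadherin CpGs used lay upstream of a first exon. By cluster, WT had 37.9% ± 6.80 in Pcdha, 37.6% ± 10.1 in Pcdhb and 26.3% ± 7.52 in Pcdhg. The means of Pcdha and Pcdhb differed by less than the spread between libraries. Pcdhg was the lowest of the clusters in each WT library.

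**Figure D1:**
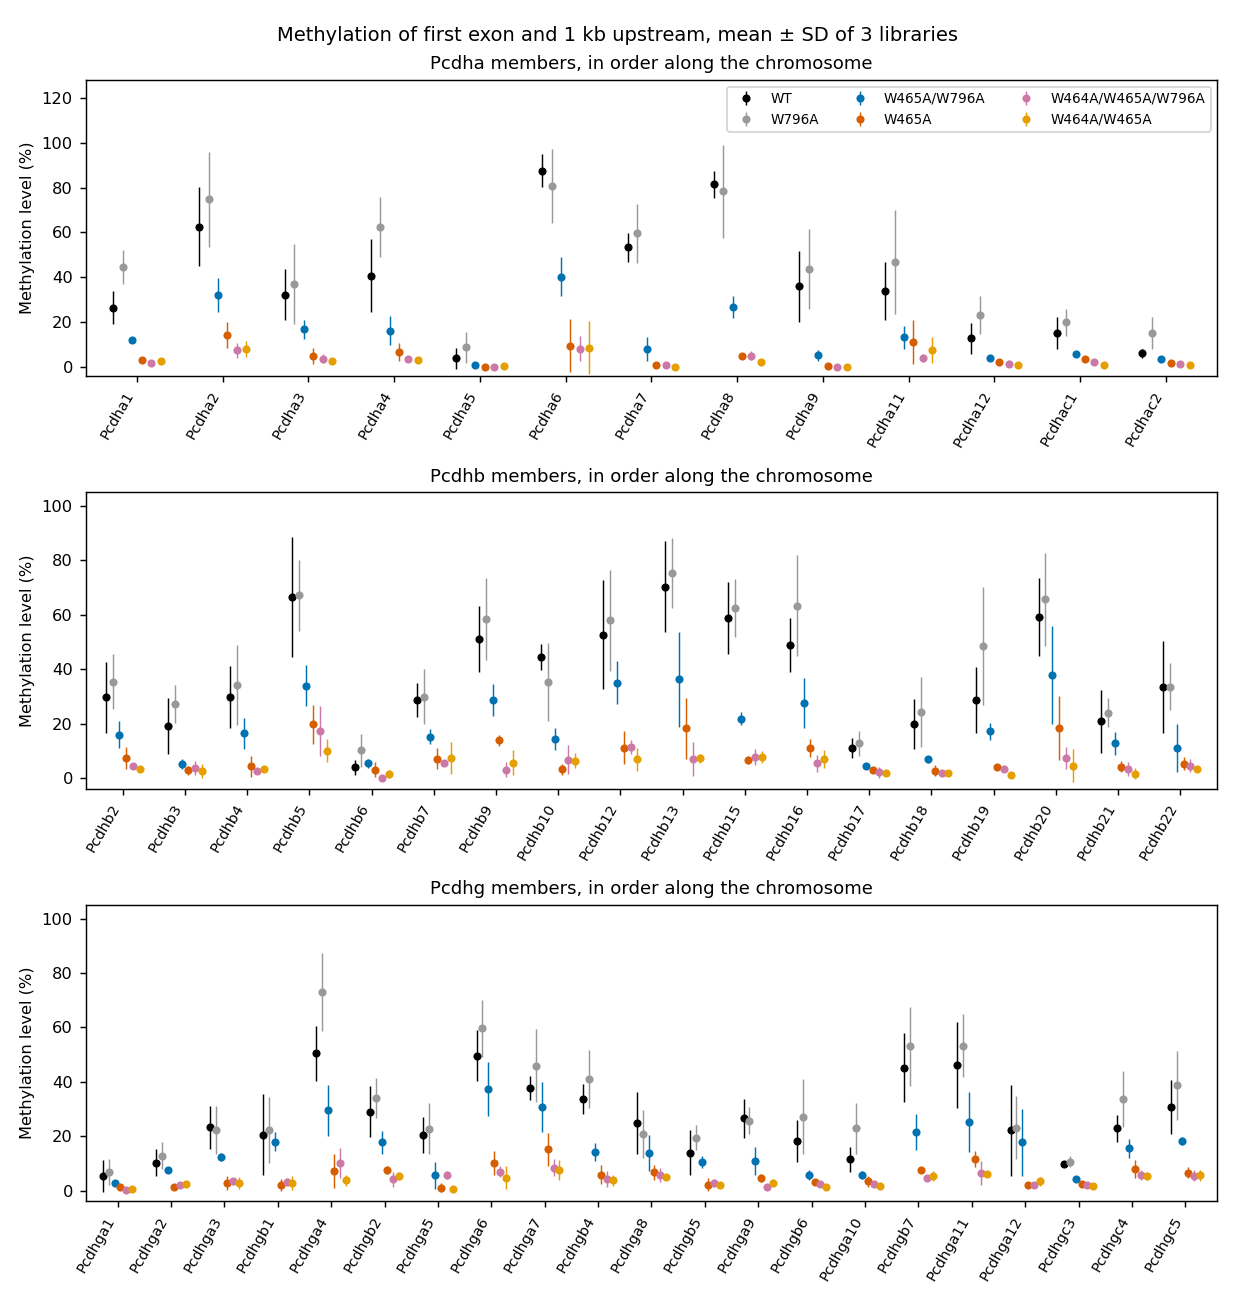
Methylation level in percent (y axis) of each of the 52 tested clustered protocadherins, placed in their order along the chromosome within Pcdha, Pcdhb and Pcdhg; points are means and bars SDs of 3 libraries, with groups by colour. WT and W796A lie highest for nearly every gene, W465A/W796A lies between, and the other groups lie mostly under 20%.

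Within each cluster the genes differed widely from one another in WT. With reads pooled over the WT libraries, levels ran from 3.17% in Pcdha5 to 88.6% in Pcdha6, with 13 of 52 genes at 50% or more and 2 under 5%. Neighbouring genes could be far apart. Pcdha5 had 9.15%, 1.45% and 1.08% in WT replicates 1 to 3, and Pcdha6, the next gene, had 79.2%, 90.2% and 93.3%. By the mean of the libraries Pcdha5 (3.89%) and Pcdhb6 (3.86%) were both lowest. The Pcdha6 value rests on 3 CpGs and 18 to 78 reads per library, that of Pcdha5 on 7 CpGs and 122 to 346 reads. Pcdha8, measured over 28 CpGs with 459 to 1286 reads (first exon at chr18:36992371-36994848, GRCm38), had 74.4%, 83.6% and 86.1%. The order of the genes recurred between libraries: Spearman's rho over the 52 genes was 0.87 to 0.90 between WT libraries and 0.91 to 0.94 between W796A libraries. This is a description across genes, which share each library's depth and overall level.

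Pcdhb showed the same range of levels. Pcdhb13 had 54.5%, 68.5% and 88.0% and Pcdhb5 had 41.7%, 73.3% and 84.1% in WT replicates 1 to 3, while Pcdhb6, the gene after Pcdhb5, had 2.08%, 7.22% and 2.27%. These 3 genes have only 3 or 4 CpGs used. Pcdhb17, with 21 CpGs, had 7.37%, 14.8% and 10.6%, and Pcdhb2, with 19, had 18.4%, 44.2% and 26.1%. In Pcdhg the highest genes reached less far: Pcdhga4 had 40.2%, 60.5% and 50.5% and Pcdhga6 had 38.9%, 56.9% and 52.9%, against 1.48%, 11.97% and 2.22% in Pcdhga1, the first gene of that cluster.

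The C-type genes were less methylated than the other members. Their mean WT level was 17.0% ± 4.27, and it was below the mean of the other members in each of the 18 libraries, the difference running from -22.2 points in WT replicate 2 to -0.32 points in replicate 3 of the triple mutant. Pcdhac2 had 4.24%, 6.34% and 8.12% in WT replicates 1 to 3 and Pcdhgc3 had 9.0%, 11.2% and 9.38%. Pcdhac1, with 7.25%, 18.1% and 20.6%, and Pcdhgc4, with 21.3%, 28.4% and 18.9%, were intermediate. Pcdhgc5 had 19.5%, 38.9% and 33.6% and so lay within the range of the Pcdhg genes that are not C-type. Leaving the C-type genes out raised the WT mean of Pcdha to 42.9% and that of Pcdhg to 27.1%.

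**Figure D2:**
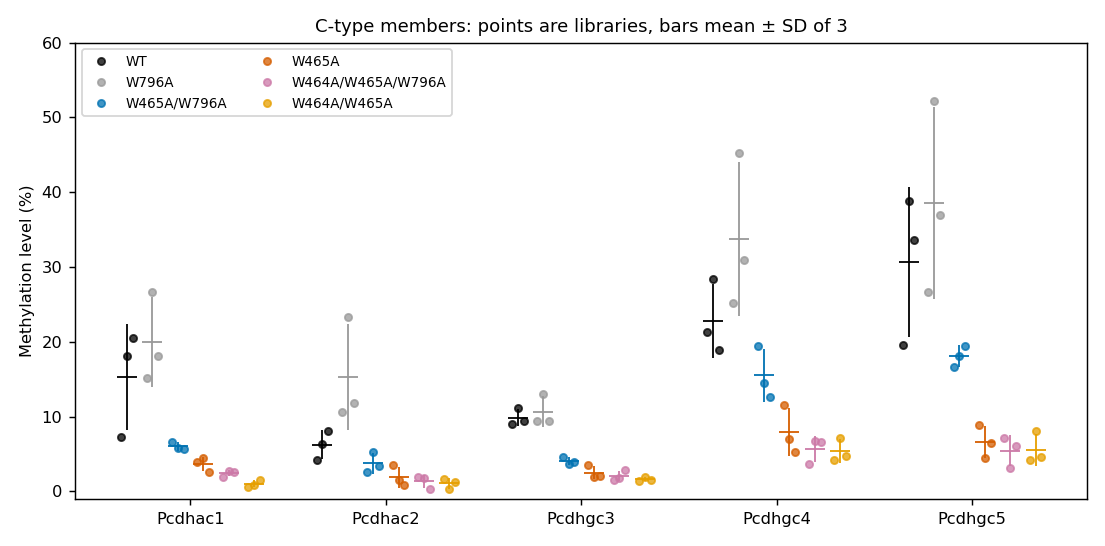
Methylation level in percent (y axis) of the 5 C-type genes in every library; each point is 1 library, and the horizontal mark and bar are the mean and SD of 3. In WT, Pcdhac2 and Pcdhgc3 stay under 12% while Pcdhgc4 and Pcdhgc5 reach 28.4% and 38.9%.

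Position in the window went with the level. CpGs upstream of the first exon had a WT mean of 8.58% ± 4.72 (59 CpGs of 12 genes), those in the first 500 bp of the exon 15.7% ± 3.74 (206 CpGs), and those from 1000 to 1499 bp 46.3%. Further in, the WT mean was 31.8% from 1500 to 1999 bp and 37.8% from 2000 to 2499 bp. Coding CpGs of the first exons averaged 32.1% in WT and untranslated ones 6.07% (66 CpGs of 10 genes). The genes that supply CpGs differ from bin to bin, so this is not a profile of any 1 gene. Levels were also lower where the CpGs used had more CpGs near them: over the 52 genes Spearman's rho between the WT level and the mean number of CpGs within 250 bp was -0.53. With CpGs counted per base of the whole window it was weaker, at -0.20. By cluster that second measure gave -0.24 in Pcdha, 0.077 in Pcdhb and -0.24 in Pcdhg.

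**Figure D3:**
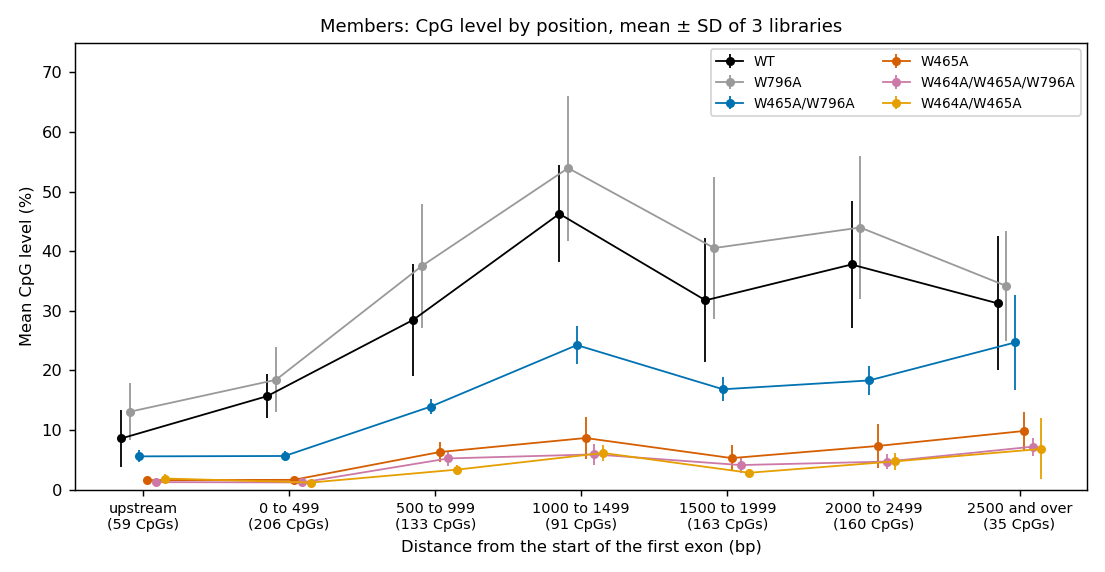
Mean CpG level in percent (y axis) against distance from the start of the first exon in bp (x axis), over all CpGs used in clustered protocadherin windows; points are means and bars SDs of 3 libraries per group. In WT the level climbs from 8.58% upstream to 46.3% at 1000 to 1499 bp, and the low groups stay under 10% throughout.

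At the CpG-dense end, protocadherin CpGs were more methylated in WT than other windows of like density. With 21 to 30 CpGs within 250 bp, the WT mean was 27.2% ± 7.53 at 407 protocadherin CpGs and 17.7% ± 4.30 at 42718 CpGs of other windows. With over 30, it was 10.9% ± 6.10 at 200 protocadherin CpGs and 1.64% ± 0.54 elsewhere. At the sparse end the order was the other way, with 56.5% against 68.7% for 1 to 10 CpGs. These are descriptions of levels, and the differences were not tested.

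In W796A most protocadherins had a somewhat higher mean than in WT, and none was called. Replicates 1, 2 and 3 averaged 28.7%, 49.7% and 38.7% over the 52 genes, or 39.0% ± 10.52, and 46 of 52 genes had a higher mean than in WT. This and the later counts of higher or lower means carry no share of all genes. Genes share each library's overall level, so they are not separate observations. The median difference of pooled levels was 3.76 points over the 52 genes and 0.096 over all genes tested. The ranges of the groups overlapped, and the difference of means, 5.95 points, was smaller than the spread between libraries of a group. Taken by replicate number, W796A was higher by 4.18, 9.07 and 4.59 points (SD 2.71). This pairing has no stated source and was noticed in these same data. Over all genes tested, the deviations of WT replicate 3 correlated more with those of W796A replicate 2 (0.21) than of W796A replicate 3 (0.11). Single libraries moved the unpaired difference, to 0.61 points without W796A replicate 2, 1.66 without WT replicate 1, 9.72 without WT replicate 2 and 11.1 without W796A replicate 1. No gene was called at a Benjamini-Hochberg adjusted p under 0.05 with a difference of at least 10 points in the quasi-binomial test, which called 0.269% of all genes higher and 0.0158% lower. Unadjusted, 9 of the 52 had p under 0.05 (17.3%, beside 12.01% of all genes), and limma and edgeR called 0.

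Among the genes closest to a call, Pcdha1 had 18.5%, 33.2% and 27.9% in WT and 37.8%, 52.9% and 43.0% in W796A. Its libraries did not overlap, and the difference of pooled levels was 15.2 points (quasi-binomial adjusted p = 0.0597). Pcdhac2 had 10.6%, 23.4% and 11.8% in W796A, all above its WT libraries (10.4 points, quasi-binomial adjusted p = 0.0554). Of the 52 genes 2 had W796A libraries that all lay above all WT libraries, against 7.73% of all genes, and none had the reverse, against 1.66%. Same-numbered WT and W796A libraries deviated together, though those numbered 3 only weakly. A block for the replicate number gave 2 genes higher when fitted over all 18 libraries and 0 over these 2 groups. The counts with a block carry no share of all genes and describe only how the count moved with the setting. Without W796A replicate 1, 11 were called higher, beside 1.91% of all genes. Without WT replicate 2 it was 1, beside 0.0949%, and without W796A replicate 3 also 1, beside 0.301%.

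In the W465A cells nearly all of the first exons had lost most of their methylation. The mean over 52 genes was 8.98%, 4.96% and 4.70% in replicates 1 to 3, or 6.21% ± 2.40, against 33.1% in WT, and no W465A library reached the lowest WT library. The quasi-binomial test called 47 of 52 genes lower and none higher, beside 15.4% of all genes lower. As a call needs 10 points, only genes with a pooled WT level of 10% or more could be called lower. Of the 52 genes 48 were at that level, and of all other genes tested 2283. This and the later shares of all genes against WT thus include many genes that could not be called. Of 13 Pcdha genes 11 fell, of 18 Pcdhb genes 17 and of 21 Pcdhg genes 19. The median difference was -26.1 points over the 52 genes and -0.45 over all genes tested. For 50 of 52 genes every W465A library lay below every WT library, which was so for 31.3% of all genes; none lay wholly above, against 0.981%.

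Measured in points, the fall was widest in the genes that WT methylates most, which had the most to lose. The WT libraries enter both the choice of these genes and the difference. As a share of the WT level the fall was not wider in them. The median share left in W465A was 18.5% for WT levels of 10% to 20% and 21.3% for 60% to 100%, with 15.5% and 19.0% in the bands between. Pcdha8 had 6.54%, 3.95% and 5.12% in W465A, a difference of -76.5 points from WT (quasi-binomial adjusted p = 2.36e-05). Pcdha6 had 23.1%, 3.03% and 2.38% (-78.9 points, quasi-binomial adjusted p = 0.000173). Pcdha7 had 60.2%, 47.6% and 52.3% in WT replicates 1 to 3 and 1.86%, 0.00% and 0.43% in W465A over 9 CpGs, so that next to nothing was left; it is named for this, after its values were seen. None of these 3 genes had a W465A library within its WT range.

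In Pcdhb, Pcdhb5 had 27.3%, 19.0% and 13.0% in W465A (-51.1 points, quasi-binomial adjusted p = 0.000425), and Pcdhb13 had 28.8%, 19.2% and 6.67% (-52.7 points, quasi-binomial adjusted p = 0.000779). Pcdhb2 had 11.7%, 7.11% and 3.43% (-28.8 points, quasi-binomial adjusted p = 0.000343). All 3 fell, and Pcdhb kept the highest mean of the clusters in W465A, 8.10% ± 2.96 against 5.01% ± 3.05 in Pcdha and 5.34% ± 1.54 in Pcdhg. Pcdhga4 had 14.0%, 1.86% and 5.74% (-46.5 points, quasi-binomial adjusted p = 0.00016), and Pcdhga6 had 15.3%, 7.69% and 7.46% (-40.9 points, quasi-binomial adjusted p = 0.000211). Pcdhgb5, with 51 CpGs, had 6.94%, 23.0% and 11.7% in WT and 4.86%, 0.67% and 0.92% in W465A (-14.3 points, quasi-binomial adjusted p = 0.000412).

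The 5 genes not called had WT means under 10%, close to or under the minimum difference for a call. Pcdhgc3, the gene with the most CpGs used (64, with 856 to 3258 reads), had 3.47%, 1.89% and 2.10% in W465A, all below WT, a difference of -7.79 points (quasi-binomial adjusted p = 2.36e-05). Pcdhac2 had 3.49%, 1.47% and 0.80% (-4.26 points, quasi-binomial adjusted p = 0.0364), and Pcdhga1 had 1.5%, 1.0% and 1.28% (-6.04 points, quasi-binomial adjusted p = 0.0351). Pcdha5 (adjusted p = 0.0993) and Pcdhb6 (adjusted p = 0.771) did not pass the same test. Among the other C-type genes Pcdhac1, Pcdhgc4 and Pcdhgc5 fell, by 13.1, 17.0 and 25.1 points (quasi-binomial adjusted p of 0.000177, 0.00153 and 0.000382). Leaving out each library in turn gave 36 to 47 genes, the lowest without WT replicate 2, beside 9.16% of all genes.

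**Figure D4:**
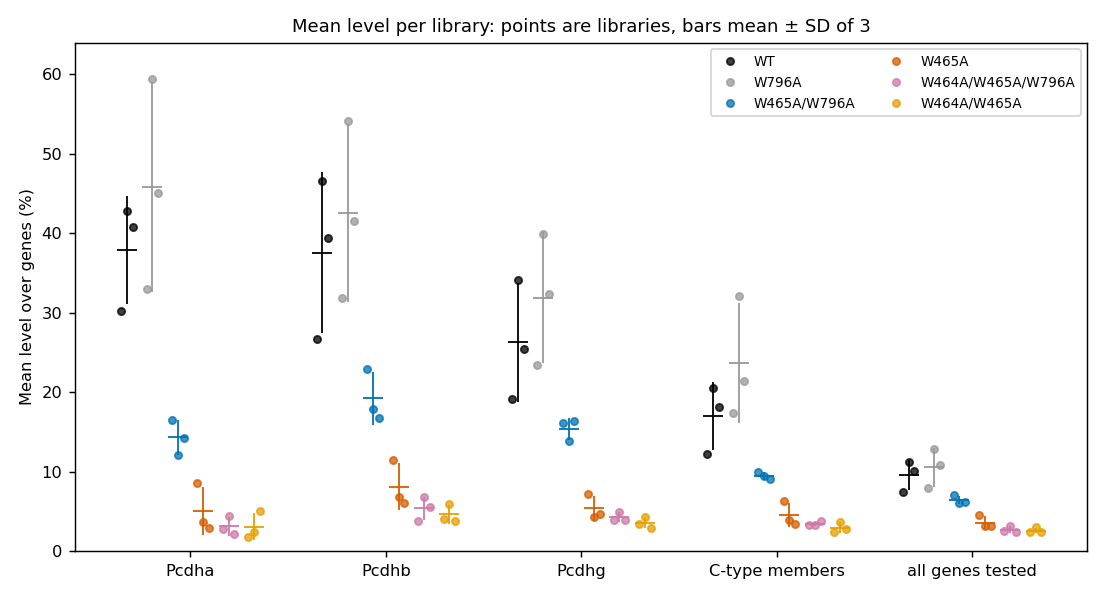
Mean level over genes in percent (y axis) for Pcdha, Pcdhb, Pcdhg, the C-type genes and all genes tested (x axis); each point is 1 library, and the horizontal mark and bar are the mean and SD of 3. WT lies between 19.2% and 46.6% in the 3 clusters, W465A/W796A there between 12.1% and 22.9%, and all other W465A-bearing groups at or under 11.5%.

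The double substitution W464A/W465A gave a pattern much like W465A alone, at slightly lower levels. Its replicates averaged 3.25%, 4.33% and 3.76% over the 52 genes, or 3.78% ± 0.54. Against the WT libraries used for the other comparisons too, 46 of 52 genes were called lower and none higher, beside 16.5% of all genes lower. For 50 of 52 every library lay below every WT library, against 35.8% of all genes, and none lay wholly above, against 1.04%. Pcdhga2 was not called here, at -9.4 points, under the 10-point minimum; it is named because it had been called in W465A. Pcdha8 had 2.13%, 1.88% and 3.60%, a difference of -79.4 points (quasi-binomial adjusted p = 6.07e-06). Pcdhac1 had 0.60%, 0.92% and 1.53% (-15.6 points, quasi-binomial adjusted p = 2.52e-05). The lowest count on leaving out a library was 39, without WT replicate 2, beside 12.4% of all genes.

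Set directly against W465A, W464A/W465A was lower in the mean of 44 of 52 genes, with a median difference of pooled levels of -1.61 points. No gene was called by the quasi-binomial test, limma or edgeR, and the quasi-binomial test called 0% of all genes in either direction; unadjusted, 3 of the 52 had p under 0.05, a share of 5.77% beside 4.56% of all genes. Of the 52 genes 5 had W464A/W465A libraries all below those of W465A, beside 8.79% of all genes, and none had the reverse, beside 2.76%. The difference of the means over genes was -2.43 points, with an SD between libraries of 1.74, and -1.05 points without W465A replicate 1. Of single genes Pcdhb20 had the widest difference of means, -13.8 points over 3 CpGs.

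With W796A added to W465A the protocadherins held an intermediate level. The mean over 52 genes in W465A/W796A was 18.6%, 14.8% and 16.0% in replicates 1 to 3, or 16.4% ± 1.93. Each library lay below the lowest WT library (24.5%) and above the highest W465A library (8.98%). By cluster the means were 14.3% ± 2.18 in Pcdha, 19.2% ± 3.30 in Pcdhb and 15.4% ± 1.38 in Pcdhg, so Pcdha, which shared the highest WT level with Pcdhb, stood at 37.7% of its WT level, Pcdhb at 51.1% and Pcdhg at 58.7%. The differences between clusters were not tested.

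Against WT, 20 of 52 genes were called lower (9 Pcdha, 6 Pcdhb and 5 Pcdhg) and none higher, beside 3.01% of all genes lower. In 29 of 52 every library lay below every WT library, against 17.5% of all genes, and in none above, against 1.12%. Pcdha8 had 32.0%, 22.2% and 26% in W465A/W796A (-54.6 points, quasi-binomial adjusted p = 0.00421), and Pcdha1 had 11.6%, 11.9% and 12.5% (-17.1 points, quasi-binomial adjusted p = 0.0165). Pcdhac1 was the C-type gene that fell, with 6.67%, 5.76% and 5.64% (-10.51 points, quasi-binomial adjusted p = 0.0196). Pcdhga4, with 39.8%, 21.8% and 26.9%, did not pass (-24.2 points, quasi-binomial adjusted p = 0.0972), and its first library lay within 1 point of the lowest WT library. This count depends on single libraries: it was 35 without WT replicate 1 (beside 8.63% of all genes), 1 without WT replicate 2 (0.0396%) and 13 without WT replicate 3 (1.53%). It was 6, 3 and 4 without W465A/W796A replicates 1, 2 and 3, beside 0.229%, 0.0949% and 0.119%. limma called 0 and edgeR 3, counts given without the share of all genes.

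Against W465A, W465A/W796A had the higher mean in all 52 genes, and in 37 of 52 every library lay above every W465A library, against 18.6% of all genes; in none was it the reverse, against 2.62%. The difference of the means over genes was 10.2 points, with an SD between libraries of 2.18. Only Pcdhga6 was called, beside 0.894% of all genes higher; it had 42.2%, 44.0% and 25.7% in W465A/W796A, a difference of 28.5 points from W465A (quasi-binomial adjusted p = 0.0358). Pcdha1 passed the adjusted p but not the 10-point minimum (8.74 points, quasi-binomial adjusted p = 0.0363). Pcdha8 had a difference of 21.9 points (quasi-binomial adjusted p = 0.0777) without overlap between libraries. Unadjusted, 31 of 52 genes had p under 0.05, beside 15.4% of all genes. limma called 0 and edgeR 3, and fitting these 2 groups alone gave 20. These counts from other fits carry no share of all genes and describe only how the count moved with the setting. Pcdhga6 kept its call without W465A replicate 1 or W465A/W796A replicate 3 and lost it without any other library of these groups (adjusted p up to 0.214 by the quasi-binomial test).

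As a share of what W465A had lost, W465A/W796A held a median of 33.8% of the difference between WT and W465A over the 47 genes whose pooled level was at least 10 points lower in W465A. The quartiles were 25.5% and 45.7%. Over 1999 other genes chosen in the same way the median was 46.1%, with quartiles 30.1% and 59.0%. The WT and W465A libraries enter both figures, and the 2 medians were not tested against each other.

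Adding W796A to W464A/W465A gave no such intermediate level. W464A/W465A/W796A averaged 3.56%, 5.45% and 4.01%, or 4.34% ± 0.99, and it differed from W464A/W465A by 0.56 points, less than the SD between libraries of 0.80. No gene was called by the quasi-binomial test, limma or edgeR, and 0% of all genes were called in either direction by the first; unadjusted, 1 of the 52 had p under 0.05, a share of 1.92% beside 2.35% of all genes. Every library of the triple mutant lay above those of W464A/W465A in 5 of 52 genes, against 4.34% of all genes, and below them in 1, against 3.96%. Pcdha8 had 3.66%, 7.46% and 4.32% and Pcdha1 1.90%, 2.5% and 0.66%, and both overlapped W464A/W465A. Against WT, 47 of 52 genes were called lower and none higher, beside 16.6% of all genes lower, and for all 52 every library lay below every WT library, against 36.0% of all genes, and above for none, against 0.886%. Leaving out WT replicate 2 lowered that count of 47 to 40, beside 12.5% of all genes.

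Compared with W465A/W796A, the triple mutant was lower in the mean of 51 of 52 genes. The quasi-binomial test called 16 lower (3 Pcdha, 5 Pcdhb and 8 Pcdhg) and none higher, beside 6.72% of all genes lower. A fall of 10 points needs a pooled W465A/W796A level of 10% or more, so this share too includes genes that could not be called. The median difference was -10.6 points over the 52 genes and -0.19 over all genes tested. In 46 of 52 genes every library lay below those of W465A/W796A, against 24.8% of all genes, and none lay wholly above, against 1.95%. Pcdhga6 had 8.14%, 4.76% and 8.06% in the triple mutant, which is 31.8 points below W465A/W796A (quasi-binomial adjusted p = 0.00349). Pcdhb13 had 0.00%, 9.38% and 11.8%, a difference of -33.5 points (quasi-binomial adjusted p = 0.0307). Pcdhgc4 was the C-type gene called, with 3.63%, 6.78% and 6.63% after 19.5%, 14.5% and 12.6% (-10.50 points, quasi-binomial adjusted p = 0.0346). Every single left-out library lowered the count, to 3, 10 and 9 without W465A/W796A replicates 1, 2 and 3 (beside 1.39%, 5.34% and 4.56% of all genes) and to 4, 9 and 5 without those of the triple mutant (1.61%, 5.30% and 2.71%).

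Whether the effect of W796A in each of these backgrounds departed from its effect in WT was tested as a departure from additivity on the logit scale. The departures given in points are taken from pooled percentage levels, which is not the tested scale. Its effects in W465A and in W464A/W465A were not tested against each other. For W465A and W796A no protocadherin was called by the quasi-binomial test, limma or edgeR (0% of all genes by the first), while 19 of 52 had an unadjusted p under 0.05, beside 12.4% of all genes, and the median departure was 4.92 points. Leaving out W796A replicate 2, the W796A library with the highest level, gave 10 calls, all higher than additive, beside 3.23% of all genes. For W464A/W465A and W796A no gene was called by any of the 3, 0 of 52 had an unadjusted p under 0.05, beside 3.65% of all genes, and the median departure was -3.43 points.

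As a set, though not in the C-type genes, the protocadherins kept a smaller share of their WT level than other genes did. Over the 52 genes the median share was 17.1% in W465A, 10.51% in W464A/W465A, 11.9% in the triple mutant and 45.0% in W465A/W796A. The 5 C-type genes, with pooled WT levels of 6.13% to 31.9%, kept 24.9%, 15.9%, 19.5% and 56.2% in the same order. The 590 other genes with WT levels of 10% to 20% kept 25.2%, 17.2%, 18.4% and 49.0%. Of the 52 genes, the 40 with a WT level of 20% to 100% kept 16.5%, 10.4%, 11.6% and 47.0%. In 1693 other genes of that range the shares were 34.1%, 22.9%, 23.5% and 66.9%. These sets differ in other respects: the median WT level was 38.6% in the 40 and 65.6% in the other genes, and the median number of CpGs within 250 bp was 20.5 and 12.4. The order was the same within each of 4 bands of the WT level: for W465A the medians were 18.5% against 25.2% for WT levels of 10% to 20%, 15.5% against 25.6% for 20% to 40%, 19.0% against 26.5% for 40% to 60%, and 21.3% against 39.4% above. It was also the same at each CpG density, with 14.5% against 33.4% of the WT level left in W465A where 21 to 30 CpGs lay within 250 bp. These shares are descriptions with no test.

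**Figure D5:**
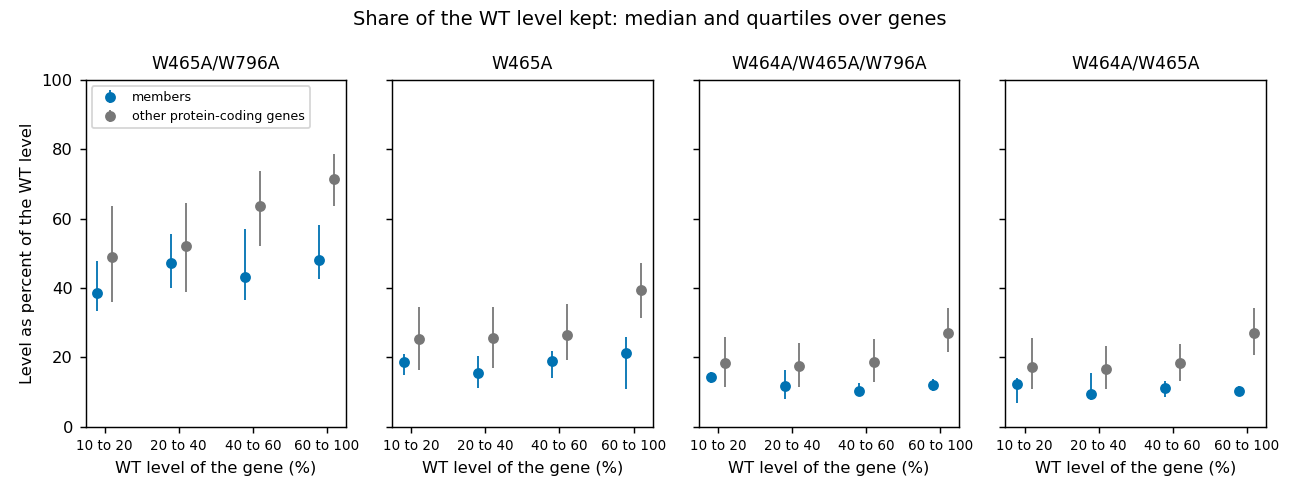
Level as a percent of the gene's own WT level (y axis) by band of WT level in percent (x axis), with 1 panel per mutant that carries W465A; points are medians and bars quartiles over clustered protocadherins (blue) and other protein-coding genes (grey). The protocadherin median lies below the other genes in each band, for example 21.3% against 39.4% in W465A for WT levels of 60% to 100%.

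A fit with each library's overall level as an offset asks whether a gene changed by more than the library as a whole on the logit scale. In that fit 19 of 52 genes were lower in W465A (8 Pcdha, 6 Pcdhb and 5 Pcdhg), beside 2.9% of all genes; 24 were lower in W464A/W465A, beside 3.92%, and 18 in the triple mutant, beside 3.72%. None was higher, beside 0.0237%, 0.0554% and 0.0475% of all genes in the same order. In W465A/W796A 4 were lower, Pcdha7, Pcdha8, Pcdha9 and Pcdhb15, beside 0.127% of all genes, and none higher. For W796A 5 were higher, Pcdha1, Pcdha4, Pcdhac2, Pcdhb19 and Pcdhga4, beside 1.18% of all genes, and none lower, beside 0.0791%. Genes named in this paragraph outside the naming rule were chosen after their values were seen. The other comparisons between mutants gave 0 calls of protocadherins with the offset. Among all genes W465A/W796A against W465A gave 0.111% higher, W464A/W465A against W465A 0.0158% lower, and the triple mutant 0.0316% higher against W464A/W465A and 0.158% lower and 0.00791% higher against W465A/W796A. The departures from additivity gave 0.38% lower and 0.34% higher for W465A and W796A, and 0.00791% higher for W464A/W465A and W796A.

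As a share of the WT level, least was left at the start of the Pcdha exons. This stretch was picked after its values were seen and was not tested. In the first 500 bp of 8 Pcdha exons (80 CpGs) WT had 25.1% and W465A 1.00%, which is 3.97% of the WT level, while from 500 to 2499 bp 17.0% to 19.1% of it remained in each bin of 500 bp. The same stretch of 13 Pcdhg exons (121 CpGs) went from 7.28% in WT to 1.08%, which is 14.9%. In W465A/W796A the Pcdha stretch had 6.97%. Over all clusters, upstream CpGs had 1.59% in W465A and 5.58% in W465A/W796A against 8.58% in WT.

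The order of the genes was partly kept in the mutants. Spearman's rho between the WT level and the mutant level over 52 genes was 0.95 for W796A, 0.85 for W465A/W796A, 0.72 for W465A, 0.71 for W464A/W465A and 0.74 for the triple mutant. In W465A the range was 0.27% (Pcdha5) to 21.4% (Pcdhb20), with 25 of 52 genes under 5%, and in W465A/W796A 0.67% (Pcdha5) to 41.7% (Pcdha6), with 6 under 5%.

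Outside the gene windows the clusters were more methylated than inside them in WT, W465A and W465A/W796A alike, and they too fell from WT. The CpGs used inside the windows had 28.4%, 5.24% and 14.3% in these groups. Their median number of CpGs within 250 bp was 24, against 10 outside. The 112 other CpGs used within the 3 clusters had a WT mean of 57.8% ± 11.5, falling to 16.8% ± 4.63 in W465A and 34.9% ± 2.46 in W465A/W796A; these values carry no test. In W796A they had 60.4% ± 10.2. The constant exons had 7 CpGs used, with 36.8% ± 3.72 in WT, 30.2% ± 13.8 in W796A and 14.6% ± 10.1 in W465A. Between Pcdhb and Pcdhg lie Taf7, a subunit of the general transcription factor TFIID, at 0.50% ± 0.47 in WT over 22 CpGs, and Slc25a2, a mitochondrial carrier, at 53.8% ± 7.94 over 8 CpGs and 12.6% ± 9.70 in W465A.

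Protocadherins outside the clusters were a mixed set. Of 12 listed, 9 were tested. Of these 3 were called lower in W465A, the same number in W464A/W465A and in the triple mutant, 1 in W465A/W796A, and 1 was called higher in W796A. Pcdh7, Pcdh8 and Pcdh17 were lower in W465A by less than the 10-point minimum, at -7.22, -3.15 and -4.82 points (quasi-binomial adjusted p of 0.00114, 0.00802 and 0.000378). Pcdh10 and Pcdh18 did not pass that test (adjusted p of 0.314 and 0.0953). Of all genes 15.4%, 16.5%, 16.6% and 3.01% were called lower in the same order, and 0.269% higher in W796A. Pcdh1, Pcdh12 and Pcdh15 fell in W465A, from 80.4% to 30.1%, from 67.6% to 22.5% and from 83.2% to 31.4%, while Pcdh8, Pcdh10, Pcdh17 and Pcdh19 had WT means under 6%. Pcdh18 was the gene that rose in W796A, by 22.3 points (quasi-binomial adjusted p = 0.0404), from 11.4% to 32.0%. Of 25 regulators of the clusters or of methylation 20 were tested, and 2 were called lower in W465A, W464A/W465A and the triple mutant each. That is no larger a share than among all genes (15.4%, 16.5% and 16.6%). The 2 were Dnmt3l, the cofactor of the de novo methyltransferases, and Uhrf1, which brings DNMT1 to replicated DNA. Uhrf1 went from 29.2% ± 5.05 to 9.25% ± 5.36 in W465A (quasi-binomial adjusted p = 0.00752). Dnmt3l went from 17.3% ± 21.01, a WT spread wider than its mean, to 1.53% ± 1.48 (quasi-binomial adjusted p = 0.0059). Ctcf, Rad21, Smc3 and Dnmt3b had WT means under 1%.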

How the data were processed

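The deposited table gives, per the file headers, the count of methylated reads and the total read count at each of 21867550 CpGs in 18 libraries; the counts are whole numbers without normalization. Per the submitters' processing notes, cutadapt 1.2.1, Bismark 0.18.1 and Bowtie 1.2 were used with the mm10 (GRCm38) genome. Removal of PCR duplicates is not given in the sources used here, so reads are not independent molecules and precision was taken from the spread between libraries.

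Counts were summed per window of each protein-coding gene of GENCODE M21 (the transcript with the longest coding sequence), and all 12641 genes with 3 or more CpGs used entered a quasi-binomial logistic regression on the 18 libraries, which leaves 12 residual degrees of freedom. The overdispersion of each gene was moderated by the method of limma's squeezeVar (prior 1.94 with 5.54 degrees of freedom) and kept at 1 or more. An F test with Benjamini-Hochberg adjustment over all genes followed. Python 3.11.15, numpy 2.4.6 and scipy 1.17.1 were used, and the model was tested on simulated data. limma 3.58.1 and edgeR 4.0.16 in R 4.3.3 were alternatives. Libraries with the same number deviated together from their groups' means (correlations of 0.11 to 0.65) only for WT and W796A, 1 of 15 pairs of groups with all 3 correlations over 0.1; the labels name no source of a pairing.

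Genes given with values are, in each cluster, the 2 with the highest and 2 with the lowest pooled WT level and the 2 with the most CpGs used, and the C-type genes. Members and lists were chosen with earlier results of these data known.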

Additional observations from a re-analysis of the deposited data

How the results depend on the processing

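Counts in this section are given without the share of all genes, and describe only how the protocadherin counts moved with the setting. A minimum of 10 reads left 30 protocadherins and a stricter 10 CpGs per gene left 32, so fewer could be called. With 10 reads the counts were 2 for W796A, 21 for W465A, 19 for W464A/W465A, 11 for W465A/W796A and 20 for the triple mutant against WT, 0 for W465A/W796A against W465A and 4 for the triple mutant against W465A/W796A. With 10 CpGs they were 30, 29, 11 and 30 for the mutants other than W796A, then 0 and 5. The mean differences over genes with 10 reads were -20.2, -21.2 and -20.8 points for W465A, W464A/W465A and the triple mutant against WT, 6.79 for W465A/W796A against W465A and -7.39 for the triple mutant against W465A/W796A, the last being -10.4 with 10 CpGs.

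Upstream CpGs alone left 10 genes, with 3, 3, 1 and 3 lower against WT in W465A, W464A/W465A, W465A/W796A and the triple mutant and 0 and 0 in the other 2 comparisons. Their mean differences from WT were -6.76, -6.20, -2.07 and -7.30 points; W465A/W796A differed from W465A by 4.69, the triple mutant from W464A/W465A by -1.11 and from W465A/W796A by -5.23, and W464A/W465A against W465A turned to 0.57. With the first exon alone 1 gene was higher in W796A and 0 in W465A/W796A against W465A. The exon with the most coding bases gave 9 for that comparison and 27 for the triple mutant against W465A/W796A. CpGs with 5 reads in the library itself gave 33 for W465A/W796A against WT.

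A 25-point minimum gave 28 for W465A, 11 for W465A/W796A and 4 for the triple mutant against W465A/W796A, and no minimum gave 2 for W465A/W796A against W465A. Without squeezing, W465A/W796A had 0 against WT and 0 against W465A, and the triple mutant 5 against W465A/W796A. The offset gave 5, 19, 24, 4 and 18 against WT in the order W796A, W465A, W464A/W465A, W465A/W796A and triple mutant, and 0 and 0 in the last 2 comparisons; under it Pcdhgc4 in the triple mutant, at -19.6 points, changed sign on the logit scale (adjusted p = 0.983). Fits of the compared groups alone gave 20 for W465A/W796A against W465A, 1 for W464A/W465A against W465A and 28 for the triple mutant against W465A/W796A. limma gave 0 and 0 and edgeR 3 and 3 for W465A/W796A against WT and against W465A, and counting each CpG once gave 4 and 2. The causes were not tested.

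The replicate block in all 18 libraries gave 2 for W796A and changed no other count by over 1.5 times. The replicate block in the compared groups alone gave 0 for W465A and 0 for W465A/W796A against WT and 7 for the triple mutant against W465A/W796A; the numbers of those groups do not pair the libraries by the correlation of their deviations.

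Leaving out each library in turn gave 0 to 11 for W796A, 36 to 47 for W465A, 39 to 47 for W464A/W465A, 1 to 35 for W465A/W796A and 40 to 47 for the triple mutant against WT, 0 to 1 for W465A/W796A against W465A, 3 to 10 for the triple mutant against W465A/W796A, and 0 to 10 for non-additivity of W465A with W796A. The mean difference over genes ran from 0.61 to 11.1 points for W796A, -31.2 to -23.1 for W465A and -20.9 to -12.9 for W465A/W796A against WT, from -3.19 to -1.05 for W464A/W465A against W465A and from 0.0016 to 0.95 for the triple mutant against W464A/W465A. These fits without a library are not among the 279 values recomputed under the other settings for counts and mean differences over genes. Of those 279 values, 214 were classed as unchanged. For counts, this class meant a change within the limit given above for the replicate block. For mean differences, it meant staying within the spread between replicates. Of the rest, 38 became weaker, 13 stronger, 13 moved and 1 reversed. For 5 of the 57 protocadherins too few CpGs were covered for a test.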
